A study of Mus musculus with 6 samples.

Results

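First-intron distal peaks outside repeats are stretches of open chromatin that lie in the first intron of a gene, more than 3000 bp from the nearest transcription start site (TSS). They were chosen by annotation alone: the annotation of the peak named intron 1 of a transcript, the distance to the nearest TSS exceeded 3000 bp in either direction, and the detailed annotation named the intron and no repeat or CpG island. Of 175929 peaks, 12050 met the rule, which is 6.85% of all peaks and 9.84% of the 122399 distal peaks. HOMER assigns a peak by its position relative to annotated features, so that a peak listed outside repeats may still touch one at its edge.

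The assay was ATAC-seq, which marks open DNA by letting a transposase cut it and leave sequencing adapters, run on acute myeloid leukaemia (AML) cells from mice. All cells carried AML1/ETO 9a (AE9a), a shortened splice form of the AML1/ETO fusion, delivered with GFP, and all were Usp18+/f UBCER-Cre, that is, they had loxP sites in 1 of their Usp18 alleles and a tamoxifen-inducible Cre driven by the ubiquitin C promoter. Recipient mice that had become ill received oil (replicates 1, 2 and 4) or tamoxifen (replicates 1, 3 and 4), and GFP-positive Lin- c-Kit+ cells were sorted from spleen on day 3 after the first injection. Oil thus leaves Usp18+/f cells and tamoxifen is meant to leave cells with 1 working Usp18 allele. The recipients also keep their own blood cells, a sort that is not pure would admit these, and n counts libraries, since the labels do not give the mouse of each.

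The first intron of a mammalian gene is often its longest, and enhancers, stretches of DNA to which transcription factors bind and from which they act on promoters, are common in it. Such sites are open in the cell types that use them and closed elsewhere. In blood cells many are bound by RUNX, ETS and GATA factors, and AML1 (RUNX1), the DNA-binding part of AML1/ETO, recognises the RUNX motif. Usp18 removes the ubiquitin-like protein ISG15 from other proteins and restrains the type I interferon receptor.

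The peaks printed here are examples of the sequence of such regions, picked from the called peaks with the smallest adjusted p, and do not stand for the class. The peaks in Ston2, Clnk, Jakmip1 and Nek6 were among the 12 with the smallest adjusted p of those with more tags after tamoxifen, and that in 1700001K19Rik had the smallest of the peaks with fewer tags. Each is the RefSeq reference (GRCm38.p6, which is mm10) on the plus strand, whole, or the central 300 bases where the peak was longer. Capitals mark RUNX (TGTGGT), AP-1 (TGANTCA), ETS (AGGAAGT) and E-box (CAGCTG) letters on either strand.

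Ston2, chr12:91745868-91746167: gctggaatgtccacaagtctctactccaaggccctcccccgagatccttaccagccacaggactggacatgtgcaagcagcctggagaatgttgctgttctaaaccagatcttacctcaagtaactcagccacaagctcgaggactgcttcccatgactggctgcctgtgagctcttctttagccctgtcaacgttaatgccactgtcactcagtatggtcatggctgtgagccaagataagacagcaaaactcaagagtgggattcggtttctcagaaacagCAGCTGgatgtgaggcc

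Ston2, chr12:91758067-91758274: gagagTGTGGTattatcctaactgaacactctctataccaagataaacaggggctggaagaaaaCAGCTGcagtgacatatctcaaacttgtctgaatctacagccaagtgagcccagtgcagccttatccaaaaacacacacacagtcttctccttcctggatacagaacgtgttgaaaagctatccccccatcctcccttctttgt

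Clnk, chr5:38864682-38864981: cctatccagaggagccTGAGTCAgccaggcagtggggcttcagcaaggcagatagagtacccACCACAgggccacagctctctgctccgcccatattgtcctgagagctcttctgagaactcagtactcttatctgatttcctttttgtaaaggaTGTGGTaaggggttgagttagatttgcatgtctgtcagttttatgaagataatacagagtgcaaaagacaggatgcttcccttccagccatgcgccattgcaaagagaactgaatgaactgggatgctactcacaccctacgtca

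Jakmip1, chr5:37067199-37067484: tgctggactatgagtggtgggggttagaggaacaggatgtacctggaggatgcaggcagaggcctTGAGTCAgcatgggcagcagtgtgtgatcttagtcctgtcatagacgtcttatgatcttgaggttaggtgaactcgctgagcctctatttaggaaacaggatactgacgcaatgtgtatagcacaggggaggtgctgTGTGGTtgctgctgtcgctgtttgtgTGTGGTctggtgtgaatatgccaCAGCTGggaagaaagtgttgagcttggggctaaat

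Nek6, chr2:38536470-38536701: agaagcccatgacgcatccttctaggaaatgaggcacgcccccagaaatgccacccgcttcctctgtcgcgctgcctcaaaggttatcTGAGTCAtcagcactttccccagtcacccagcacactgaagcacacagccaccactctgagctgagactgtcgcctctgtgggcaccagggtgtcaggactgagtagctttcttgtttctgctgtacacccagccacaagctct

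1700001K19Rik, chr12:110678239-110678497: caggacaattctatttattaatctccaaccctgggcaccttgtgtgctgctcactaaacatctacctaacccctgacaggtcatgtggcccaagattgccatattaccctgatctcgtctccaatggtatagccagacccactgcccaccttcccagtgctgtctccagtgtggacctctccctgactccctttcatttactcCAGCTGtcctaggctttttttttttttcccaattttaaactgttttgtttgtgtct

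The Clnk and Jakmip1 stretches each held 2 RUNX matches and 1 AP-1 match. Jakmip1 and both Ston2 peaks held 1 E-box match each, the shorter Ston2 peak also 1 RUNX match, and the Nek6 peak 1 AP-1 match. The 1700001K19Rik peak held 1 E-box match. Of peaks of the same set that are not printed, those at chr2:38535662-38535868 in Nek6 and chr2:165639416-165639680 in Eya2 held none (0) of these letters. The Kirrel3, Susd3 and second 1700001K19Rik peaks held 1 RUNX match each, and the Morrbid peak 1 E-box match. RUNX matches thus occurred at a lower peak too and were absent from some higher ones. A match says that the letters are present, not that a factor binds.

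The libraries held 57.4 to 74.7 M tags (1 M is 1000000 tags), of which 0.805 to 0.993 M lay in first-intron distal peaks, and the median such peak held 41 to 52 tags per library. Tamoxifen replicate 4 stood apart from the other tamoxifen libraries. The chi-square per distal peak was 2.91 and 2.83 between it and tamoxifen replicates 1 and 3, 1.56 between these, and 1.07 to 1.20 between oil libraries. The TSS peak of Usp18 held 419 to 463 normalised tags after oil and 432 to 469 after tamoxifen, and as it need not lie in the deleted stretch it does not check the deletion. Of 11 progenitor and blast markers, 8 had a peak within 1000 bp of the TSS, among them Kit (728 to 856 normalised tags), whereas Mpo, Cd33 and Ctsg had none. All 6 erythroid markers had one, against 4 of 7 T-cell, 2 of 7 B-cell and 3 of 8 mature myeloid markers. The summed level of the progenitor list was 1731 to 1736 normalised tags after oil and 1832 to 2118 after tamoxifen, and that of the erythroid list 1496 to 1613 and 1328 to 1495. The T-cell list summed to 108 to 123 after oil and 95.4 to 110 after tamoxifen, the B-cell list to 92.5 to 117 and 89.2 to 141, and the mature myeloid list to 134 to 143 and 124 to 143. The progenitor and erythroid sums thus differed between the groups without overlap, but the progenitor markers did not all share the shift. Cd34 (74.6 to 117 after oil, 209 to 333 after tamoxifen), Flt3 and Cebpa were higher without overlap, Elane (26.6 to 28.4, then 17.9 to 24.5) was lower, and Kit, Myb, Prtn3 and Gfi1 overlapped. The part of these markers in the changes below was not tested. In sorted bulk cells, a change in openness and a change in the share of a cell type cannot be told apart.

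First-intron distal peaks were spread over 3552 host genes, the host being the gene of the transcript named by the annotation. The median host held 2 of them and 1513 hosts held 1, whereas 246 hosts with 10 or more held 3857 peaks, or 32% of all. The introns were long. Their median length, counted once per peak, was 29364 bp (quartiles 14572 and 60410 bp) for the 11876 peaks whose intron was found in the reference, and 18433 bp when each of 3661 host transcripts was counted once. The host gene was also the gene of the nearest TSS for 10993 peaks (91.2%). Of these, 814 lay upstream of that TSS, that is, between an outer and an inner promoter of the same gene. A further 1033 peaks were nearer to a TSS of another gene, and 740 lay in a noncoding host transcript.

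By position, 46.6% of the peaks lay 3000 to 10000 bp from the nearest TSS, 35.4% at 10000 to 30000 bp, 15.9% at 30000 to 100000 bp and 2.07% beyond. Their median level was 46.5, 45.8, 46.3 and 43.4 normalised tags in that order, so that openness hardly varied with distance. The nearest, in Gtpbp1, lay 3001 bp from a TSS and averaged 212 normalised tags in the oil and 244 in the tamoxifen libraries, and a Dstyk peak at 2998 bp, with 61.5 and 66.4, was left out by the limit. The farthest, in Lsamp, lay 754824 bp from a TSS and held 57.9 and 71.6 normalised tags. The highest level was that of a Sipa1l1 peak, with 977 after oil and 1024 after tamoxifen.

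In size and base composition the first-intron peaks were close to other distal peaks. Their median width was 254 bp and their median GC content 49.5%, against 253 bp and 50% for 29198 peaks of later introns outside repeats and 251 bp and 49.6% for 36970 intergenic distal peaks outside repeats. They lay nearer to a TSS, at a median of 10974 bp against 21928 bp and 21511 bp. Per kb of peak, first-intron peaks averaged 279 ± 4.43 normalised tags (SD, n = 6 libraries) and later-intron peaks 282 ± 5.32, a mean log2 ratio of -0.02 ± 0.02 that did not pass the test (exact two-sided sign-flip permutation test over 6 libraries, p = 0.156). Intergenic peaks averaged 309 ± 3.88, and the first-intron peaks lay below them in 6 of 6 libraries, by a log2 ratio of -0.15 ± 0.02 (exact p = 0.03125, the smallest that 6 libraries allow). The test measures how alike the libraries are and not the spread between peaks, where the classes overlapped widely. The quartiles of normalised tags per peak were 29.3 and 85.1 for first-intron and 29.6 and 93.2 for intergenic peaks. The shortfall was -0.10 when both classes were limited to peaks beyond 10000 bp and -0.13 among peaks of at most 300 bp. Taken as the median over peaks in place of the mean, it was -0.09.

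The share of distal tags that first-intron distal peaks held as a set differed between tamoxifen and oil by less than the spread between libraries. The share was 9.90%, 9.76% and 9.87% in oil replicates 1, 2 and 4 and 9.77%, 9.88% and 10.1% in tamoxifen replicates 1, 3 and 4, with overlapping groups. The means were 9.84% ± 0.0693 and 9.91% ± 0.152 (SD, n = 3 each, p = 0.6 in an exact two-sided permutation test that cannot fall below 0.1). Without tamoxifen replicate 4 the difference turned from 0.0644 to -0.0179 percentage points. The median log2 change over the 12050 peaks was 0.006, beside -0.004 over all distal peaks.

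Single peaks did change, and nearly all that did had gained tags. DESeq2, fitted on all distal peaks, called 105 first-intron peaks higher and 2 lower where the change exceeded 2-fold and the adjusted p fell below 0.05. These 107 are 0.888% of the first-intron peaks, beside 0.851% of all distal peaks. By direction, 0.871% were higher, beside 0.763% of distal peaks, and 0.0166% lower, beside 0.0882%. Later-intron peaks were called at 0.901% higher and 0.127% lower, and intergenic peaks at 0.811% and 0.0541%. The share called was therefore close to that of distal peaks in general. An unadjusted p below 0.05 was reached by 1296 first-intron peaks (10.8%, beside 9.94% of distal peaks). The 3 tamoxifen values all exceeded the 3 oil values at 1630 of them (13.5%, beside 12.5% of distal peaks) and all fell short at 1201 (9.97%, beside 10.6%). The robust edgeR quasi-likelihood test called 154 of the 12050 peaks (1.28%, beside 1.22% of distal peaks), 140 higher and 14 lower, and shared 101 of the 107.

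**Figure D1:**
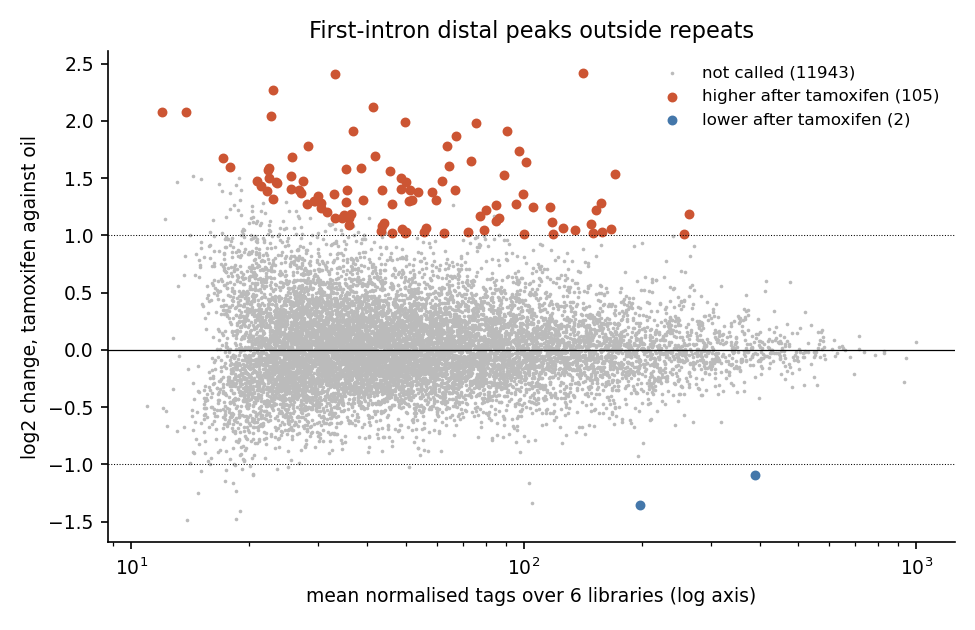
Log2 change of tamoxifen against oil (vertical axis) by mean normalised tags over 6 libraries (horizontal log axis) for 12050 first-intron distal peaks, each a point. The 105 peaks called higher (orange) span the range of tag levels, and the 2 called lower (blue) lie at 1.09 and 1.35 below 0 at high tag levels, with dotted lines at a fold change of 2.

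The peaks called higher rose by a median of 2.53-fold, from a median oil mean of 27.8 to a median tamoxifen mean of 67.2 normalised tags, and 7 of the 105 rose more than 4-fold. At 104 of them the groups did not overlap, the exception being a Ndrg1 peak. Of all distal peaks, 12.5% had the 3 tamoxifen values above the 3 oil values. A call on the same values favours such a lack of overlap, so that the 104 are no further support. They were found at every tag level, with 24, 27, 29 and 25 in 4 equal groups of peaks from the lowest to the highest mean tags. By distance, 0.552% of peaks at 3000 to 10000 bp from a TSS were called higher, 1.08% at 10000 to 30000 bp, 1.35% at 30000 to 100000 bp and 0.8% beyond, the last from 2 peaks. Their GC content (median 49.6%) and width (median 258 bp) were near those of all first-intron peaks. Of the 107 called peaks, 60 stood in the authors' peak lists of both groups, 47 in the tamoxifen list alone and none (0) in the oil list alone. Of all 12050 first-intron peaks, 8405 stood in both lists, 1558 in the tamoxifen list alone and 2087 in the oil list alone. The 47 thus entered the table only through the group in which they were high, so that this split is no independent support for their direction.

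The size of these counts changed when any 1 library was left out, which also leaves fewer libraries to test. Tamoxifen replicate 4 was the lowest tamoxifen library at 84 of the 105 higher peaks and tamoxifen replicate 3 the highest at 76. The median level of the 105 was 25.6 to 27.9 normalised tags in the oil libraries and 67.1, 79.2 and 53.3 in tamoxifen replicates 1, 3 and 4. Without tamoxifen replicate 4, 175 first-intron peaks were called higher (1.45%, beside 1.4% of distal peaks) and 60 lower (0.498%, beside 0.619%), and 100 of the 105 were still called. Without tamoxifen replicate 3 the calls were 31 and 2. Leaving out oil replicate 1, 2 or 4 gave 55, 45 and 47 higher and 3, 3 and 2 lower, and leaving out tamoxifen replicate 1 gave 59 and 4. In these fits 1701, 1249, 1249 and 639 first-intron peaks, in that order, received no adjusted p and were counted as not called. Apart from the fit without tamoxifen replicate 4, the share of all distal peaks called is not given. Whether the fall in calls is particular to first-intron peaks therefore cannot be told. In all, 27 of the 105 were called in each of the 6 fits with 1 library left out.

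**Figure D2:**
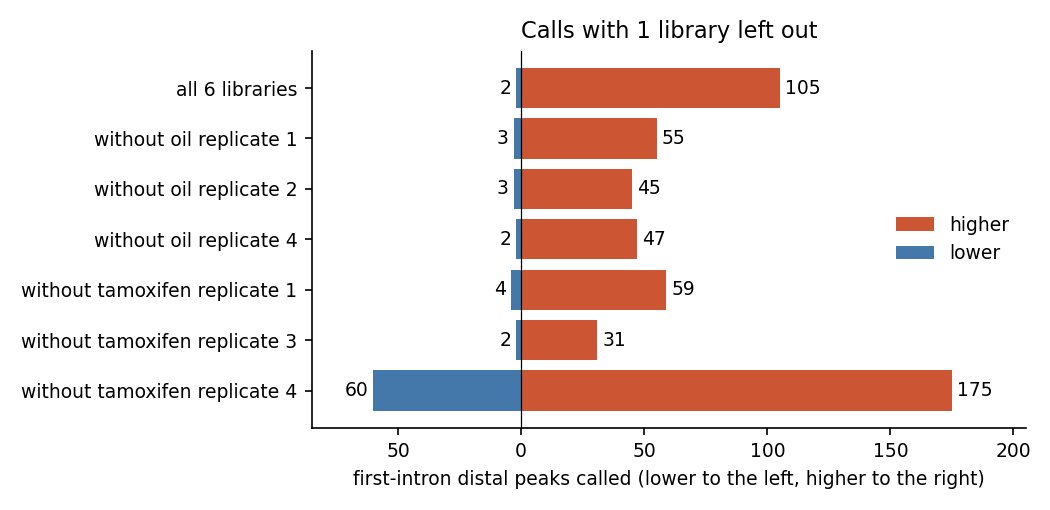
Number of first-intron distal peaks called by DESeq2 with all 6 libraries and with each library left out, higher after tamoxifen to the right and lower to the left. Calls fell to 31 higher without tamoxifen replicate 3 and rose to 175 higher and 60 lower without tamoxifen replicate 4.

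The gain with the smallest adjusted p was in Ston2, whose product stonin 2 is an adaptor for sorting membrane proteins in endocytosis. A peak at chr12:91745849-91746187, near the end of the first intron, had 33.4, 41.3 and 57.8 normalised tags after oil and 230, 244 and 242 after tamoxifen. The groups did not overlap, which the choice of peaks required. The 3 tamoxifen libraries were close to each other, and the rise was 5.34-fold (log2 2.42 ± 0.21 SE, adjusted p = 1.22e-25). A second Ston2 peak, at chr12:91758067-91758274, was almost closed after oil, with 6.68, 13.8 and 10.7 normalised tags, and had 61.4, 55.8 and 49.6 after tamoxifen (log2 2.41 ± 0.37 SE, adjusted p = 2.63e-07). Both were called whichever library was left out. All 5 Ston2 first-intron peaks had a log2 change over 1, from 1.26 to 2.42, and 4 of them were called. Of these, the peak at chr12:91766459-91766678 was not called without oil replicate 1 or 2 or tamoxifen replicate 1 or 3, its adjusted p being 1.00 without tamoxifen replicate 3. The peak at chr12:91756741-91757105 was called in none (0) of the fits with 1 library left out (adjusted p = 0.0591 without tamoxifen replicate 4, for example).

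Nek6, which encodes a kinase that acts in mitosis, had 8 first-intron peaks, and all 8 were higher in each tamoxifen library than in each oil library. Their log2 changes ran from 1.15 to 2.12 and 6 were called. The gene was named for its called peaks, and a call favours such a lack of overlap. The highest, at chr2:38536470-38536701, had 79.1, 66.9 and 116 normalised tags after oil and 250, 288 and 224 after tamoxifen, a 2.90-fold rise (log2 1.53 ± 0.20 SE, adjusted p = 2.59e-10). Its neighbour at chr2:38535662-38535868 rose more, from 15.6, 13.8 and 16.9 to 77.7, 78.1 and 45.9 (log2 2.12 ± 0.34 SE, adjusted p = 7.96e-07). The others called were at chr2:38536018-38536251 (log2 1.78, adjusted p = 1.16e-06), chr2:38531097-38531325 (log2 1.39, adjusted p = 0.000161), chr2:38537062-38537293 (log2 1.47, adjusted p = 0.000298) and chr2:38533762-38534142 (log2 1.36, adjusted p = 0.0121). The last was called in 2 of the 6 fits with 1 library left out, not without oil replicate 1 or 2 or tamoxifen replicate 1 or 3 (adjusted p = 0.104 without tamoxifen replicate 3), and the other 5 in all 6. The 2 peaks farthest from the start of Nek6 changed by a log2 of 1.15 and 1.17 and were not called (adjusted p = 0.161 and 0.0700). The called stretch thus ran over about 6 kb in the middle of a 38573 bp intron.

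Nedd4l, the gene of an E3 ubiquitin ligase that acts on ion channels and other membrane proteins, had 9 first-intron peaks, of which 6 were called higher and 1 (log2 -0.07) was not raised. The 6 lay in a first intron of 109252 bp, and the peak that was not raised in the 50734 bp first intron of another transcript. The peak at chr18:64962490-64962801 had 37.9, 23.6 and 25.8 normalised tags after oil and 125, 110 and 80.8 after tamoxifen (log2 1.87 ± 0.27 SE, adjusted p = 3.05e-08). The peak at chr18:64989527-64989886 had 35.7, 29.5 and 40.9 and then 120, 118 and 95.5 (log2 1.65 ± 0.25 SE, adjusted p = 5.96e-08). Tamoxifen replicate 4 was the lowest tamoxifen library at both, and above every oil library, as the choice of peaks required. These and the peak at chr18:64957474-64957698 were called in all 6 fits with 1 library left out, whereas the other 3 were called in 1 of the 6, that without tamoxifen replicate 4. Their adjusted p without tamoxifen replicate 3 was 0.339 to 0.765.

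Morrbid, a long noncoding RNA that limits expression of the pro-apoptotic gene Bcl2l11 in short-lived myeloid cells, had 7 first-intron peaks, all with a log2 change above 0 and 3 called. The one farthest from the start, at chr2:128364246-128364567, had 55.7, 45.3 and 47.1 normalised tags after oil and 179, 161 and 121 after tamoxifen (log2 1.64 ± 0.23 SE, adjusted p = 1.67e-09). It lay in the 98044 bp first intron of a transcript other than that of the remaining peaks, whose first intron was 56666 bp long. A further peak at chr2:128413025-128413261 had 95.8, 96.4 and 81.8 and then 265, 253 and 150 (log2 1.28 ± 0.22 SE, adjusted p = 3.55e-06). Within 1 kb of it a peak with 136 ± 5.29 and 157 ± 1.58 normalised tags (SD, n = 3) had a log2 change of 0.20 (adjusted p = 0.784). Neighbouring peaks in the same intron therefore did not change by the same amount. The called peak at chr2:128416622-128416913 (log2 1.58, adjusted p = 0.000985) was not called without oil replicate 4 or tamoxifen replicate 1 (adjusted p up to 0.0719).

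**Figure D3:**
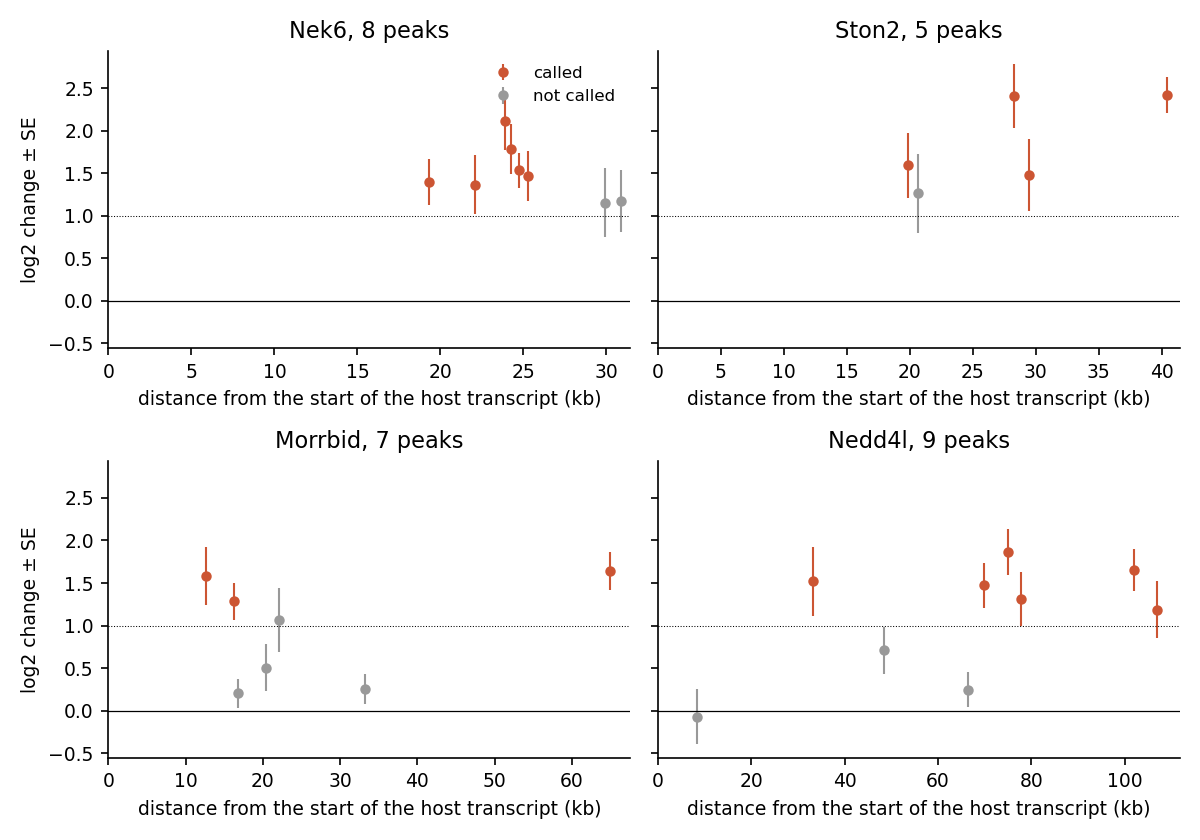
Log2 change (± SE) of each first-intron distal peak in Nek6, Ston2, Morrbid and Nedd4l by its distance from the start of the host transcript in kb, with called peaks in orange and others in grey. The 8 Nek6 peaks all lie above the dotted line at a fold change of 2, whereas Morrbid and Nedd4l hold peaks near 0 between called ones. The Nedd4l peak with a log2 change of -0.07 is placed from the start of another transcript than the called peaks, so that its position does not compare with theirs.

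The other 5 peaks complete the set with the smallest adjusted p, each called whichever library was left out. In Clnk, the gene of a SLP-76 family adaptor of immune receptor signalling, the peak at chr5:38864672-38864992 had 42.3, 23.6 and 48.0 normalised tags after oil and 141, 162 and 129 after tamoxifen (log2 1.91 ± 0.25 SE, adjusted p = 4.80e-11). In Kirrel3, which encodes a cell adhesion protein, the peak at chr9:34876132-34876678 had 54.6, 43.3 and 37.4 and then 155, 161 and 132 (log2 1.74 ± 0.22 SE, adjusted p = 4.87e-11), and its nearest TSS, 240323 bp away, was that of 4930581F22Rik. At both the groups did not overlap, which the choice of peaks required. In Susd3 the peak at chr13:49242822-49243074 was already open after oil, with 164, 142 and 176, and had 365, 444 and 287 after tamoxifen (log2 1.18 ± 0.18 SE, adjusted p = 9.36e-08). In Eya2, the gene of a transcriptional coactivator and phosphatase, the peak at chr2:165639416-165639680 had 51.2, 34.4 and 51.6 and then 150, 149 and 97.4 (log2 1.53 ± 0.25 SE, adjusted p = 9.39e-07). In Jakmip1, which encodes a microtubule-binding protein that interacts with Janus kinases, the peak at chr5:37067199-37067484 had 26.7, 16.7 and 16.9 and then 70.0, 109 and 59.7 (log2 1.99 ± 0.32 SE, adjusted p = 1.00e-06). Tamoxifen replicate 4 was the lowest of the tamoxifen libraries at all 5 and, as the choice of peaks required, above every oil library.

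The 2 peaks that fell both lay in intron 1 of 1700001K19Rik. At chr12:110678239-110678497 the oil libraries had 252, 311 and 290 normalised tags and the tamoxifen libraries 124, 113 and 98.3, so that the level after tamoxifen was 0.392 of that after oil (log2 -1.35 ± 0.17 SE, adjusted p = 3.02e-11). At chr12:110677499-110677911 the values were 466, 592 and 530 and then 305, 258 and 185 (log2 -1.09 ± 0.18 SE, adjusted p = 7.43e-07). Tamoxifen replicate 4 was the library farthest from oil at both, and without it the second peak no longer met the fold limit. The peaks lie 12539 and 13125 bp from Hsp90aa1, the gene of an inducible heat shock chaperone.

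**Figure D4:**
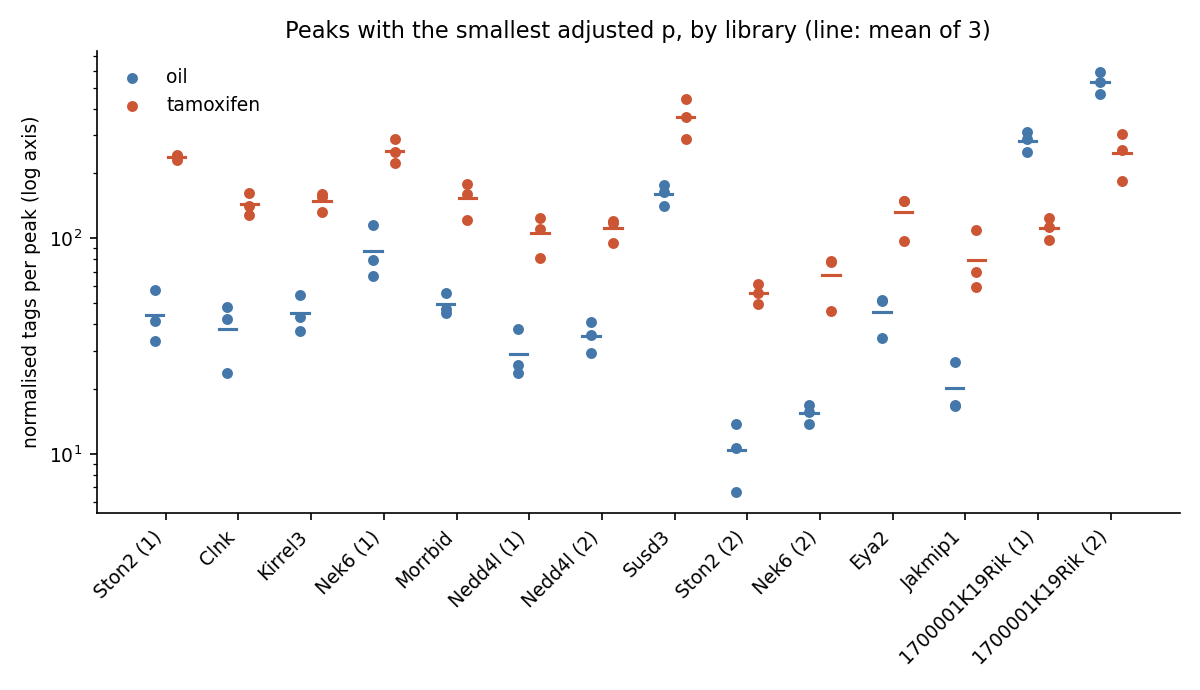
Normalised tags (vertical log axis) in each oil library (blue) and each tamoxifen library (orange) at the 12 higher and 2 lower first-intron peaks with the smallest adjusted p, with the mean of 3 as a line. The 14 peaks were chosen among those without overlap between the groups, so that the lack of overlap is no finding. The 2 peaks of 1700001K19Rik, at the right, are lower after tamoxifen.

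Several host genes held more than 1 gain. The 105 higher peaks lay in 77 host genes, and 14 of these hosts held 2 or more, 42 peaks in all. Beside the genes above, Aff3, Ndrg1 and the noncoding Gm34068 held 3 each, and Ptk2b, Smurf1, Chn2, Zfhx3, Trio, Eya2 and BC049352 held 2 each. Over all first-intron peaks of a host, the called ones included, most leaned the same way in some hosts. In Aff3, 10 of 11 peaks had a log2 change above 0 with a median of 0.80, and in Ndrg1 8 of 8 with 0.91. The called peaks add to these values. In other hosts the lean was weaker. Ptk2b had 10 of 16 above 0, with a range of -0.55 to 1.31, and Zfhx3 13 of 21, with -0.53 to 1.27.

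The hosts with the most first-intron peaks had no called peak with all 6 libraries. They were Cmip with 56, Gse1 with 43, Ext1 with 42, Cbfa2t3 with 41, Pitpnc1 with 37, St6galnac3 with 36, and Ago2 and Elfn2 with 33 each. DESeq2 called 0 of these 321 peaks, beside 0.888% of all first-intron and 0.851% of distal peaks. The edgeR test called 0 as well, beside 1.28% and 1.22%. At shares so low, few calls are to be looked for among 321 peaks. An unadjusted p below 0.05 was reached by 5, 0, 4, 2, 2, 0, 3 and 4 in the order of the hosts above, together 20 of 321 (6.23%, beside 10.8% of all first-intron and 9.94% of distal peaks). Without tamoxifen replicate 4, Ext1 had 1 peak called higher and 1 lower, Elfn2 had 1 higher, and the other 6 hosts had 0. Per 10000 bp of intron the peaks were densest in Ago2 (8.64), which encodes the effector protein of microRNAs, and Cbfa2t3 (8.48), which encodes a corepressor of the same family as ETO. They were sparsest in St6galnac3 (1.67), the gene of a sialyltransferase, and Ext1 (1.77), the gene of a heparan sulphate polymerase. The median log2 change was between -0.10 and 0.13 in all but Elfn2 (0.45).

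The highest peak of most of these hosts changed little. That of Cmip, at chr8:117263511-117263726, averaged 528 ± 34.2 normalised tags in the oil group and 503 ± 22.9 in the tamoxifen group (SD, n = 3), and that of Pitpnc1, a phosphatidylinositol transfer protein gene, 556 ± 21.9 and 575 ± 23.6. The highest peaks of Gse1 (145 ± 11.3 and 154 ± 11.3), Ext1 (257 ± 22 and 258 ± 2.90) and St6galnac3 (230 ± 9.59 and 225 ± 19.2) differed by less than the larger SD, and those of Ago2 (335 ± 19.7 and 413 ± 58.8) and Elfn2 (105 ± 13.6 and 137 ± 37.0) did not pass the test (adjusted p = 0.468 and 0.587). In Cbfa2t3 the highest peak, at chr8:122682767-122683164, had 403, 373 and 385 after oil but 215, 181 and 351 after tamoxifen. Only tamoxifen replicate 4 lay near the oil range, the adjusted p was 0.0757 with all libraries, and without that replicate the log2 change was -0.96 (adjusted p = 2.27e-08), just under the fold limit. For Ago2 the adjusted p without that replicate was 0.0296 at a log2 change of 0.42.

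Lists of genes were compared by their host peaks, and 15 of the lists are described here. The kinase and phospholipid signalling list held 277 first-intron peaks in 50 genes, of which 9 were called higher and 0 lower (3.25%, beside 0.888% of all first-intron and 0.851% of distal peaks). Of the 9, 6 lay in the single intron of Nek6, and the others were 2 in Ptk2b, which encodes a focal adhesion kinase relative, and 1 in Plcb4, a phospholipase C gene. The Plcb4 peak at chr2:135796717-135796923 was nearly closed after oil, with 4.46, 6.89 and 4.45 normalised tags, and had 29.7, 30.1 and 7.35 after tamoxifen (log2 2.08 ± 0.60 SE, adjusted p = 0.0388). The values of its tamoxifen replicate 4 lay close to oil, and it was called in 1 fit of the 6 with a library left out, that without this replicate. The Ptk2b peaks lay side by side and had log2 changes of 1.31 and 1.30 (adjusted p = 0.00455 and 0.00581), which were 0.503 and 0.460 in adjusted p without tamoxifen replicate 3. The median log2 change of the list was 0.02, edgeR called 11 of its peaks higher and 0 lower, and an unadjusted p below 0.05 was reached by 25 higher and 6 lower (11.2%, beside 10.8% of all first-intron and 9.94% of distal peaks). Without tamoxifen replicate 4 the calls were 9 and 0.

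Chromatin proteins and transcription cofactors had 228 peaks in 39 genes, 5 called higher and 0 lower (2.19%, beside 0.888% of all first-intron and 0.851% of distal peaks), although the median log2 change of the list was -0.07. Of the 5, 3 lay in the single intron of Aff3. There were 18 higher and 7 lower at an unadjusted p under 0.05 (11.0%), edgeR called 6 and 0, and without tamoxifen replicate 4 DESeq2 called 6 and 2. A further called peak lay in Runx1t1, the gene of ETO, the fusion partner of AML1. This peak, at chr4:13805786-13806041 in an intron of the mouse gene, had 37.9, 33.5 and 24.9 normalised tags after oil and 95.9, 118 and 77.2 after tamoxifen (log2 1.60 ± 0.27 SE, adjusted p = 2.93e-06), and was called whichever library was left out. The Tox2 peak at chr2:163229154-163229372, in the gene of an HMG-box factor, had 86.9, 104 and 92.5 and then 203, 250 and 156 (log2 1.10 ± 0.20 SE, adjusted p = 3.97e-05) and missed the fold limit without tamoxifen replicate 3. The 3 Aff3 peaks, in a gene related to the MLL fusion partner AFF1, had log2 changes of 1.06 to 1.30 and adjusted p of 0.0130 to 0.0426. Each of the 3 was called in the fit without tamoxifen replicate 4 and in none (0) of the other 5 with a library left out, with an adjusted p of 0.271 to 0.797 without tamoxifen replicate 3.

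Adhesion and migration genes had 114 peaks in 28 genes, of which 2 were called higher and 0 lower (1.75%, beside 0.888% of all first-intron and 0.851% of distal peaks). They lay in Itga2, the collagen receptor subunit, and Parvb, which links integrins to actin. The Itga2 peak rose from 7.80, 7.87 and 10.7 to 36.4, 49.1 and 24.8 normalised tags (log2 2.05 ± 0.44 SE, adjusted p = 0.000962) and the Parvb peak from 44.6, 49.2 and 48.0 to 89.2, 156 and 76.2 (log2 1.17 ± 0.27 SE, adjusted p = 0.00338). Tamoxifen replicate 3 was the highest library at both, and without it the adjusted p was 0.131 and 0.414. The Parvb peak was also lost without any 1 of the oil libraries. At an unadjusted p under 0.05, 13 peaks of the list were higher and 10 lower (20.2%, beside 10.8% of all first-intron and 9.94% of distal peaks), and edgeR called 2 and 0. DESeq2 called 3 and 2 without tamoxifen replicate 4.

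Haematopoietic transcription factor genes, which hold many of the best known enhancers of blood cells, had 211 peaks in 32 genes and 1 call. The call is 0.474%, beside 0.888% of all first-intron and 0.851% of distal peaks. The called peak lay in Rxra, the retinoid X receptor gene, with 17.8, 9.84 and 10.7 normalised tags after oil and 48.0, 59.1 and 23.9 after tamoxifen (log2 1.78 ± 0.41 SE, adjusted p = 0.00336). It was lost without oil replicate 2 or 4 or tamoxifen replicate 1 or 3, with an adjusted p of 0.295 in the last case. The median log2 change of the list was -0.04, with 12 peaks higher and 13 lower at an unadjusted p under 0.05 (11.8%), and edgeR called 1 and 0. The calls were 2 higher and 2 lower without tamoxifen replicate 4.

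The other 11 lists had no called first-intron peak, where 0.888% of all first-intron and 0.851% of distal peaks were called. Counts at an unadjusted p under 0.05 are given with their share, beside 10.8% of all first-intron and 9.94% of distal peaks. No lean in direction was tested. Cytokine and growth factor receptor genes and their feedback regulators had 110 peaks. DESeq2 called 0 of them and edgeR 0, and 13 (11.8%) had an unadjusted p under 0.05, of which 12 were higher. Erythroid and megakaryocyte genes had 102 (in the same order 0, 0 and 7, or 6.86%). Typical interferon-stimulated genes had only 13 peaks in 9 genes (0, 0 and 2, or 15.4%, both lower), with a median log2 change of -0.32. Heat shock and chaperone genes had 25 peaks (0, 0 and 4, or 16%, of which 3 lower), with a median of -0.23. NF-kB inflammatory genes had 17 (0, 0 and 3, or 17.6%), p53 damage genes 41 (0, 1 and 4, or 9.76%) and T-cell genes 25 (0, 0 and 3, or 12%). B-cell genes had 9 (0, 0 and 2, or 22.2%) and mast cell and basophil genes 31 (0, 0 and 4, or 12.9%). Progenitor and blast genes had 14 (0, 0 and 2, or 14.3%) and mature myeloid genes 7 (0, 0 and 0). The first-intron peaks of interferon-stimulated and NF-kB genes were too few for more than these counts. Without tamoxifen replicate 4, 2 cytokine receptor peaks and 1 p53 peak were called higher and 1 interferon-stimulated and 1 erythroid peak lower, and the other 7 of these lists had 0 calls.

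The 60 peaks called lower without tamoxifen replicate 4 lay in 54 host genes, and tamoxifen replicate 4 was below every oil library at 38 of them, within the oil range at 18 and above it at 4. Examples, chosen for their adjusted p after the values were seen, were peaks in Pcsk5 (147, 146 and 137 normalised tags after oil, 53.7, 33.5 and 104 after tamoxifen), Golph3 (225, 240 and 304, then 86.3, 124 and 195) and Aff1 (285, 301 and 306, then 161, 120 and 284). Their adjusted p was 0.243, 0.248 and 0.562 with all libraries, and their log2 change without the replicate -1.70, -1.30 and -1.07. Of genes on the lists described, Bach1, Itga6, Itgb1, Aff1, Hdac7, Parp14 and Gypc held such peaks.

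A motif panel was read in the central 200 bp of each peak, on both strands, and is given as a description. RUNX letters (TGTGGT) stood in 2365 of 12050 first-intron peaks (19.6%), near their share in later-intron (19.6%), intergenic (18.9%) and all distal peaks (21%). Among the 105 higher first-intron peaks they stood in 41, or 39.0% (95% Wilson interval 30.3 to 48.6%), and among the other distal peaks called higher in 39.4%. Read the other way, 1.73% of first-intron peaks with RUNX letters were called higher, beside 0.871% of all. The intervals cover counting error only, and peaks in the same intron are not independent.

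The E-box CAGCTG, often found beside GATA sites, stood in 27 of the 105 (25.7%, interval 18.3 to 34.8%) against 15% of all first-intron peaks. Among the other distal peaks called higher its share was 12.7%. ETS letters (AGGAAGT) stood in 18.1% of the higher and 12% of all first-intron peaks, and AP-1 letters (TGANTCA) in 13.3% and 8.03%. For EGR letters (GTGGGNG) the order was turned, with 12.4% and 19.6%. The GATA factor motif, spelled AGATAAG (8.57% and 8.85%), the IRF and ISRE core (GAAANNGAA, 4.76% and 5.53%) and NF-kB (GGGANTTTC, 0.952% and 0.739%) had like shares in both. CTCF letters (CCANNAGGG) stood in 6.27% of first-intron peaks against 8.53% of later-intron and 8.66% of intergenic peaks.

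**Figure D5:**
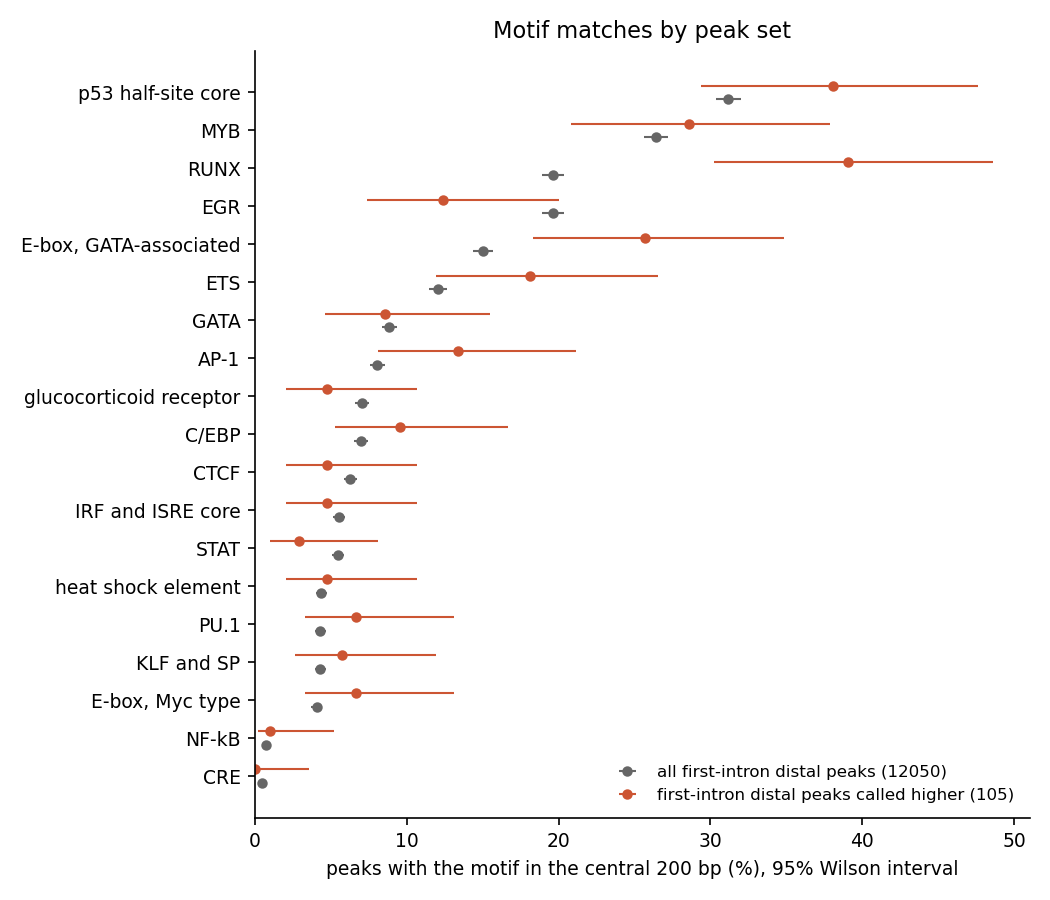
Share of peaks with each of 19 motifs in the central 200 bp, in percent with 95% Wilson intervals, for all 12050 first-intron distal peaks (grey) and the 105 called higher after tamoxifen (orange). RUNX (39.0% against 19.6%) and the GATA-associated E-box (25.7% against 15%) are the pairs whose shares lie farthest apart.

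A pair of called peaks lay near Usp18 on chromosome 6. A peak in Tuba8, an alpha-tubulin gene, at chr6:121214940-121215234 lay 30570 bp from the Usp18 TSS peak and had 192, 139 and 179 normalised tags after oil and 265, 438 and 323 after tamoxifen (log2 1.01 ± 0.19 SE, adjusted p = 9.65e-05). It was not called without oil replicate 2 or tamoxifen replicate 3, where it missed the fold limit. A peak in Mical3, 191689 bp away, had a log2 change of 1.03 (adjusted p = 0.00964) and was not called without oil replicate 2 or 4 or tamoxifen replicate 1 or 3 (adjusted p up to 0.284). Both were looked at for their place after the calls were known.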

How the data were processed

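Chromatin accessibility was measured by ATAC-seq in 3 oil and 3 tamoxifen libraries. The authors mapped reads to mm10 with Bowtie2, called peaks with HOMER, merged the peak lists of the groups and counted tags in each merged peak. The values deposited are unnormalised estimated counts of tags, in steps of 0.5 since each mate of a pair adds 0.5, and no position could add more than 3. Peaks were called on the libraries that were then compared, and a peak seen in neither group is not in the table. The highest peaks may be capped by the position limit.

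After rounding to whole tags, all distal peaks were fitted together in DESeq2 1.42.0 under R 4.3.3 (Wald test, Benjamini-Hochberg adjustment over all 122399 distal peaks, default independent filtering). All 12050 first-intron distal peaks received an adjusted p in the fit of all 6 libraries. Calls needed a change of more than 2-fold with an adjusted p below 0.05. Normalised tags are tags divided by the DESeq2 size factor. In simulated data with changes planted at 200 peaks, DESeq2 called 84% of these and 10 unchanged peaks. The planted changes exceeded the median change of the peaks called higher here. No simulated library stood apart as tamoxifen replicate 4 does, so the simulation does not show how the calls fare with such a library. Alternatives used edgeR 4.0.16 in its robust quasi-likelihood form, other size factors, intensity- and GC-dependent loess offsets, filters, limits and libraries. Shares per library were compared with exact two-sided permutation tests over 20 label assignments, and classes of peaks with exact sign-flip tests over 6 libraries.

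Host genes came from the transcript in the annotation, matched to RefSeq for 12026 peaks. Of 169768 TSS distances, 81.9% lay within 2 bp of the reference used here. Peaks are named by a rule: among called peaks without overlap between groups the 12 higher and up to 8 lower with the smallest adjusted p, the 8 hosts with most peaks and their highest peak, called peaks in hosts of the 16 lists, and those at the distance limit. The results of 1 of the lists are not reported here. Only 2 peaks were called lower. The regions, lists, motifs and tests were chosen with earlier results of these data known. Intervals cover counting error only.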

Additional observations from a re-analysis of the deposited data

How the results depend on the processing

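The count of 107 called first-intron peaks, 105 of them higher, was 98 to 154 under the other size factors, loess offsets, fits, filters and test and with an adjusted p limit of 0.1, within 1.5 times of the count. It was 182 with no fold limit and ran from 33 to 235 with 1 library left out. Replicate numbers 1 and 4, which occur in both groups, did not mark pairs: the deviations of same-numbered libraries from their group means correlated at -0.05 and 0.04. With the number as a replicate block on these 4 libraries, 1 peak was called, in a fit with 2 libraries fewer that gave 3512 first-intron peaks no adjusted p. The 14 named peaks were past the limits in each of 140 values from alternatives with all 6 libraries, and in 83 of 84 with 1 library left out, the exception being the second 1700001K19Rik peak without tamoxifen replicate 4. Under the block 1 of the 14 was called, and no direction turned.

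The median log2 change moved by less than the spread between libraries (SD 0.0185) under each alternative, and its sign was not stable. The difference in the share of distal tags was -0.00746 percentage points with repeats and CpG islands included, and -0.0179 to 0.132 with 1 library left out (the cause was not tested), whereas within replicate numbers it averaged 0.0404 in the paired comparison. The log2 ratio to intergenic peaks was -0.156 to -0.147 with 1 library left out, at an exact p of 0.0625, the smallest that 5 libraries allow. The median of 41 to 52 tags per peak limits what could be seen at a single peak.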
